A study of Rattus norvegicus with 12 samples.

Results

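The myelin and mature oligodendrocyte genes are 33 genes chosen by symbol from the 37209 gene symbols of a count table of rat brain RNA: proteins that build myelin, enzymes that make its galactolipids, and the transcription factors, connexins, receptors, adhesion proteins and other proteins of the cells that form it. Total RNA from the brains of Sprague Dawley rats aged post natal day 21 was sequenced in 12 libraries, 3 in each of 4 groups. The groups were middle cerebral artery occlusion (MCAO, a stroke of the forebrain), its sham group (sham LN), pontine infarction (PI, a stroke of the pons in the brain stem) and its sham group (sham PN). Each sham group was matched to the stroke whose column code begins with the same letter. The labels speak of 3 rats for each stroke, name no further treatment, and do not say that the sham libraries come from separate animals, so p-values measure the spread between these libraries. The sources used here do not give which part of the brain was taken or how long after the stroke.

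Oligodendrocytes wrap axons of the brain and spinal cord in myelin, a stack of compacted membrane that speeds conduction. The membrane is held together by proteins such as myelin basic protein (Mbp) and is rich in galactosylceramide and its sulfated form, sulfatide, which the galactolipid enzymes make. The transcription factor Myrf starts and maintains the program of mature oligodendrocytes, and in the third week after birth the rodent brain is still laying down myelin.

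The libraries held 19805815 to 40400676 counts. Of the 33 members, 32 passed the filter on low counts that kept 17008 genes, and Gjb1, which encodes a connexin, was listed at 0 in every library. Of the protein-coding symbols on the X chromosome, 591 of 606 (97.5%) were at 0 in every library, against 1052 of 16016 (6.57%) on the autosomes. Gjb1 is X-linked and is not described further. The defining oligodendrocyte markers Mbp, Mag, Mog, Mobp, Cnp, Cldn11 and Opalin were detected in all 12 libraries. Levels are given in CPM, the count scaled to a common library size. Choroid plexus markers summed to 1087 CPM in MCAO replicate 1, against 2.37 and 8.27 CPM in the other MCAO libraries and 1.45 to 4.95 CPM in sham LN. Infiltrating myeloid markers summed to 160 to 2043 CPM in MCAO libraries and 31.9 to 39.6 CPM in sham LN, and to 203 to 1007 CPM in PI libraries and 42.9 to 43.2 CPM in sham PN. Neuron markers summed to 2641 to 4741 CPM in MCAO and 4398 to 5754 CPM in sham LN, and to 1861 to 3278 CPM in PI and 3699 to 4294 CPM in sham PN. Markers of Schwann cells, which share several myelin genes, summed to 54.8 to 143 CPM in MCAO and 52.3 to 66.0 CPM in sham LN, and to 87.2 to 134 CPM in PI and 96.0 to 140 CPM in sham PN. For the 5 that were tested, log2 changes were -0.84 to 3.19 after MCAO, with 1 called higher and 0 lower. After PI they were -1.01 to 3.97, with 0 called. Astrocyte markers summed to 4287 to 5302 CPM in MCAO and 2144 to 2335 CPM in sham LN, and to 5637 to 8164 CPM in PI and 3222 to 3434 CPM in sham PN. Of the 6, 1 rose and 3 fell after MCAO (Gfap was 8.28-fold higher, while Slc1a3, Aldh1l1 and Gja1 fell), and 1 rose after PI. Microglia markers summed to 159 to 289 CPM in MCAO and 233 to 284 CPM in sham LN, and to 269 to 943 CPM in PI and 215 to 258 CPM in sham PN. The log2 changes of these 5 were -2.09 to 1.24 after MCAO, with 1 called lower and 0 higher. After PI they were -0.06 to 2.21, with 2 called higher and 0 lower. The part of these other cell types in the members' changes was not tested.

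The first question was whether myelin genes differed between each stroke and its sham group. After MCAO, 15 of the 32 members fell and 0 rose at an adjusted p under 0.05 (edgeR quasi-likelihood test, Benjamini-Hochberg over all 17008 genes), where 6.07% of all tested genes fell, 12.5% rose and 18.6% did either. All 3 galactolipid enzymes and 7 of 12 structural and membrane proteins were among them, led in size by the connexin Gjc3 and the membrane protein Opalin, at 3.21 and 3.0-fold lower. After PI, 4 of the 32 members fell and 0 rose, where 0.87% of all tested genes fell, 3.21% rose and 4.08% did either. These 4, the structural proteins Mog and Mal and the enzymes Fa2h and Ugt8, had also fallen after MCAO.

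The log2 change was negative for 29 of 32 members after MCAO, where 50.2% of all genes were negative, and for 29 of 32 after PI, where 58% were. The members' median log2 change was -0.77 after MCAO, beside 0 for all tested genes, and -0.6 after PI, beside -0.08 for all tested genes. The 3 stroke libraries lay entirely below the 3 sham libraries for 24 members after MCAO and 18 after PI, where 18.7% of all genes did so in either comparison. Summed over the members, the level was 10820 to 18000 CPM in MCAO libraries and 19480 to 26930 CPM in sham LN, and 36390 to 37680 CPM in PI libraries and 52080 to 64320 CPM in sham PN. Neither pair of these scaled ranges overlapped, but Mbp makes up much of the sum. As a share of all counts, with no scaling, the members made 1.07% to 1.87% in MCAO libraries and 1.87% to 2.53% in sham LN. Without Mbp the share was 0.561% to 1.02% in MCAO libraries and 0.894% to 1.12% in sham LN, which overlap through MCAO replicate 1. In that library 28 of the 32 members lay below the sham LN mean, while Tf had 3342 CPM, against 691 to 1004 CPM in sham LN. Without Mbp the share was 1.69% to 1.9% in PI libraries and 2.14% to 2.36% in sham PN, which do not overlap. These levels and shares are relative to all RNA of a library. In whole tissue, fewer oligodendrocytes, less RNA per oligodendrocyte and more RNA from other cells cannot be told apart.

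**Figure D1:**
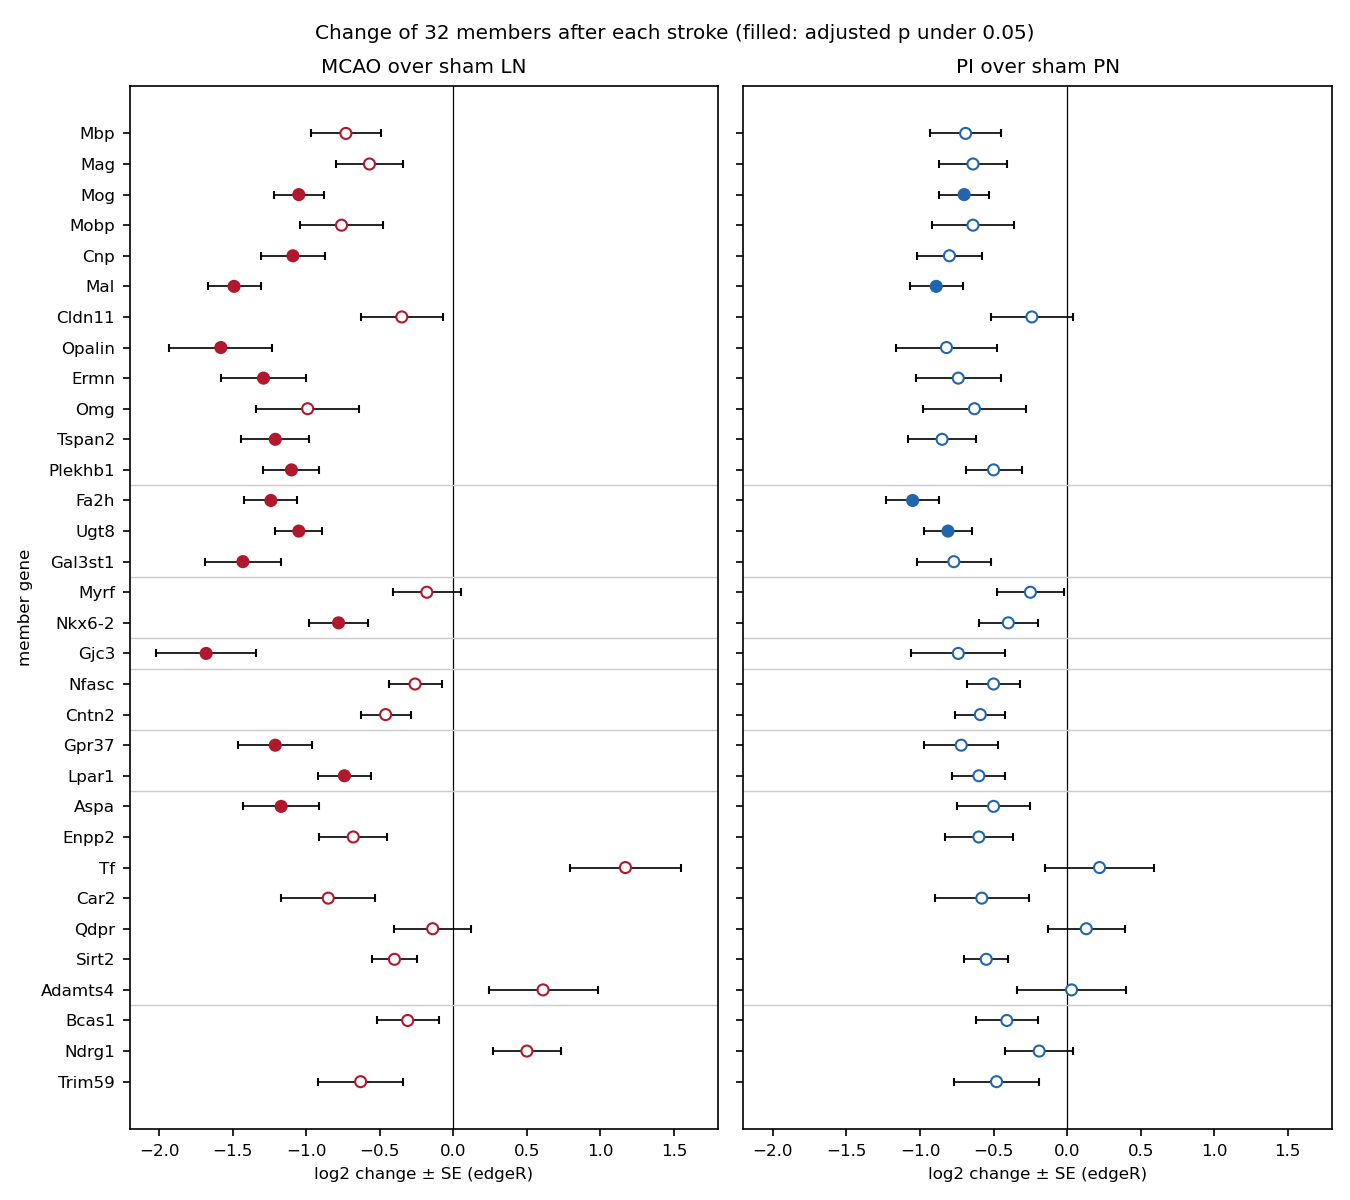
Log2 change of each tested member after MCAO over sham LN and after PI over sham PN, ordered by role, with bars of 1 SE and filled points for an adjusted p under 0.05. Most members lie left of 0 in both comparisons, with medians of -0.77 and -0.6.

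Structural and membrane proteins of myelin came first. In the values below, MCAO libraries are given as replicate 1, replicate 2 and the library without a replicate number, and the other groups as replicates 1 to 3, all as levels in CPM, which cannot be compared between genes because genes differ in length. After MCAO, 7 of 12 fell, namely Mog, Cnp, Mal, Opalin, Ermn, Tspan2 and Plekhb1, with a median log2 change of -1.07 over the 12. After PI, 2 of 12 fell, Mog and Mal, with a median of -0.69 over the 12.

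Mbp, whose product joins the cytoplasmic faces of the myelin membrane, had 8190, 5166 and 8328 CPM in MCAO libraries, against 15040, 10840 and 10150 CPM in sham LN. It had 20990, 19180 and 21950 CPM in PI libraries, against 30730, 30440 and 38990 CPM in sham PN. Every stroke library lay below every sham library of its pair. The log2 changes were -0.73 ± 0.24 (SE, adjusted p = 0.0528) after MCAO and -0.69 ± 0.24 (adjusted p = 0.126) after PI, so neither passed the test. After MCAO the adjusted p of Mbp was 0.00474 by DESeq2 and 0.0365 by limma voom, but 0.0819 with the replicate number as a block and 0.153 with the compared libraries alone, and it passed in 2 of the 6 fits that left out a library. The block sets the unnumbered MCAO library apart, so MCAO changes in that fit rest on the numbered MCAO libraries. After PI the adjusted p of Mbp was 0.0378 by DESeq2 and 0.108 by limma voom.

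Mag, an adhesion protein on the inner myelin face toward the axon, had 515, 308 and 505 CPM in MCAO libraries, against 734, 683 and 548 CPM in sham LN. It had 930, 936 and 965 CPM in PI libraries, against 1127, 1436 and 1857 CPM in sham PN. The groups did not overlap in either pair, with log2 changes of -0.57 ± 0.23 (adjusted p = 0.098) after MCAO and -0.64 ± 0.23 (adjusted p = 0.129) after PI, and neither passed. Mobp, another basic protein of compact myelin, had log2 changes of -0.76 ± 0.28 (adjusted p = 0.0741) and -0.64 ± 0.28 (adjusted p = 0.207), also short of the threshold.

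Mog, a glycoprotein of the outermost myelin surface, had 88.3, 69.1 and 90.3 CPM in MCAO libraries, against 215, 164 and 132 CPM in sham LN. It had 236, 259 and 256 CPM in PI libraries, against 415, 403 and 403 CPM in sham PN. It fell after both strokes, with log2 changes of -1.05 ± 0.17 (adjusted p = 0.00372) and -0.70 ± 0.17 (adjusted p = 0.0449). The call after PI lay just under the threshold: it was lost whichever of the 6 libraries compared was left out, and the adjusted p was 0.0596 by limma voom and 0.0503 with the replicate number as a block. Mal, a raft protein that sorts membrane toward myelin, had 151, 159 and 196 CPM in MCAO libraries, against 462, 424 and 533 CPM in sham LN. Its PI libraries had 382, 470 and 402 CPM, against 637, 712 and 968 CPM in sham PN. Mal fell after both strokes with no overlap, with log2 changes of -1.49 ± 0.18 (adjusted p = 0.00144) and -0.89 ± 0.18 (adjusted p = 0.0229).

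Cnp, an enzyme that keeps cytoplasmic channels in myelin open, had 520, 599 and 609 CPM in MCAO libraries, against 1419, 1240 and 1026 CPM in sham LN. It had 1103, 1714 and 1984 CPM in PI libraries, against 2417, 2834 and 3124 CPM in sham PN. It fell after MCAO (-1.09 ± 0.22, adjusted p = 0.00774) and was just short of the threshold after PI (-0.80 ± 0.22, adjusted p = 0.0592), with no overlap in either. Opalin, a transmembrane glycoprotein of oligodendrocytes, had 45.5, 39.4 and 37.1 CPM in MCAO libraries, against 114, 131 and 121 CPM in sham LN. Its PI libraries had 64.4, 182 and 62.4 CPM, against 141, 207 and 198 CPM in sham PN. The MCAO groups were far apart (-1.58 ± 0.35, adjusted p = 0.0125), while PI replicate 2 lay within the sham PN range and the change after PI was -0.82 ± 0.34 (adjusted p = 0.195).

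Among the other structural and membrane proteins, Ermn, a cytoskeletal protein of late myelinating cells, fell after MCAO by a log2 of -1.29 ± 0.29 (adjusted p = 0.0139). Tspan2, a tetraspanin, fell by -1.21 ± 0.23 (adjusted p = 0.00683), and Plekhb1, a pleckstrin homology protein, by -1.10 ± 0.19 (adjusted p = 0.00437). After PI these 3 had log2 changes of -0.74, -0.85 and -0.50, with adjusted p of 0.166, 0.0618 and 0.152. Cldn11, the claudin of myelin tight junctions, had the smallest changes of the 12, at -0.35 ± 0.28 (adjusted p = 0.391) after MCAO and -0.24 ± 0.28 (adjusted p = 0.656) after PI, and its groups overlapped in both. Omg, a surface protein that inhibits neurite growth and is also made by neurons, had -0.99 ± 0.35 (adjusted p = 0.0711) and -0.63 ± 0.35 (adjusted p = 0.325).

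**Figure D2:**
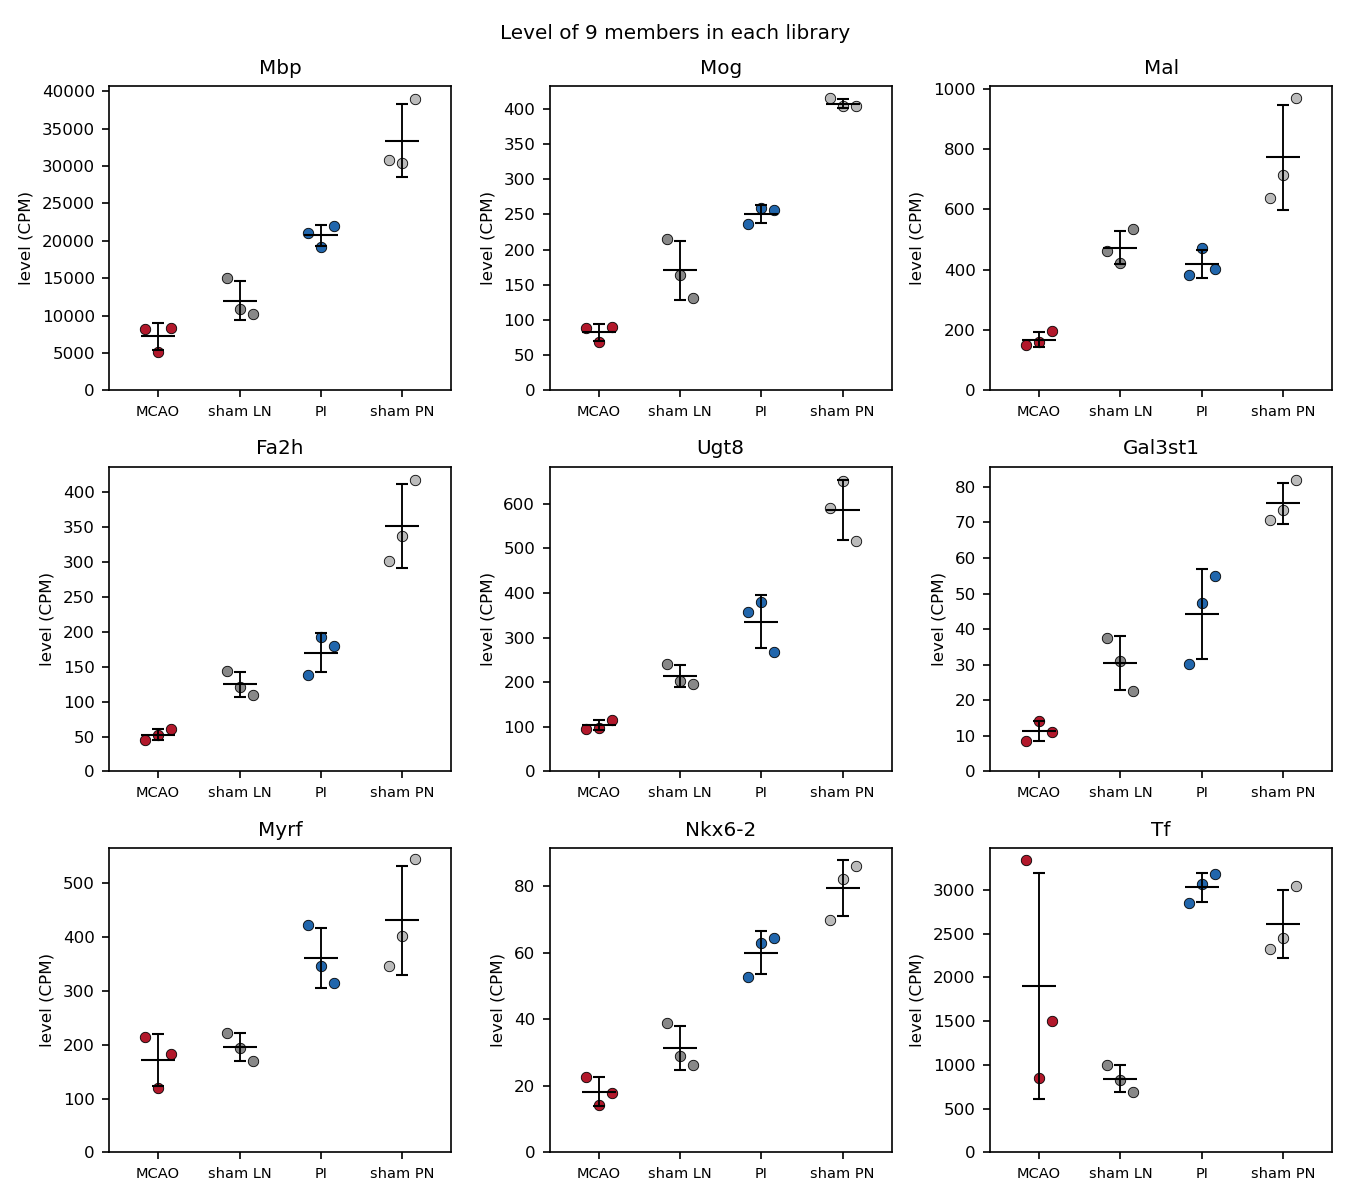
Level of 9 members in each library, in CPM on linear axes that start at 0, for MCAO, sham LN, PI and sham PN, with 1 point per library and the group mean ± SD in black. Mbp, Mal, Fa2h and Ugt8 lie below their sham group in every stroke library, while Myrf overlaps it in both pairs.

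The galactolipid enzymes Fa2h, Ugt8 and Gal3st1 act in one route. Fa2h hydroxylates the fatty acid of the ceramide, Ugt8 adds the galactose that makes galactosylceramide, and Gal3st1 adds the sulfate that makes sulfatide. All 3 fell after MCAO and 2 of 3 after PI, with medians of -1.24 and -0.81, and every stroke library lay below every library of its sham group for each of the 3.

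Fa2h had 45.4, 52.3 and 60.5 CPM in MCAO libraries, against 144, 121 and 109 CPM in sham LN. It had 138, 193 and 180 CPM in PI libraries, against 301, 337 and 418 CPM in sham PN. It was 2.37-fold lower after MCAO (log2 -1.24 ± 0.18, adjusted p = 0.00244) and 2.07-fold lower after PI (log2 -1.05 ± 0.18, adjusted p = 0.014), the largest fall of any member after PI. Ugt8 had 95.1, 98 and 116 CPM in MCAO libraries, against 241, 203 and 196 CPM in sham LN. Its PI libraries had 357, 380 and 268 CPM, against 590, 652 and 516 CPM in sham PN. It fell by a log2 of -1.05 ± 0.16 (adjusted p = 0.0029) after MCAO and -0.81 ± 0.16 (adjusted p = 0.0222) after PI, where the adjusted p was 0.0558 with the compared libraries alone. Gal3st1 had 8.52, 14.3 and 11.1 CPM in MCAO libraries, against 37.6, 31.1 and 22.7 CPM in sham LN. Its PI libraries had 30.3, 47.5 and 54.9 CPM, against 70.8, 73.6 and 81.9 CPM in sham PN. It fell after MCAO (-1.43 ± 0.26, adjusted p = 0.00565) and did not pass after PI (-0.77 ± 0.25, adjusted p = 0.11).

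With 1 library left out, the number of the 4 calls after PI that passed changed, and so did the number of all genes called, 694 with every library. Without sham PN replicate 2, 0 of the 4 passed and 52 genes were called. Without sham PN replicate 3, 0 passed and 6 genes were called. Without PI replicate 2, 9 members passed and 965 genes were called. Without sham PN replicate 1 or PI replicate 1, 2 passed, with 182 and 431 genes called. Without PI replicate 3, 1 passed, with 310 called. In these fits the log2 change stayed at -0.73 to -0.66 for Mog and -1.01 to -0.69 for Mal. It stayed at -1.15 to -0.91 for Fa2h and -0.91 to -0.67 for Ugt8. DESeq2 called 10 members after PI, with 1738 genes called in all, and limma voom 3, with 315 in all. After MCAO, 11 of the 15 passed whichever library was left out. Ermn, Lpar1 and Nkx6-2 did not pass without sham LN replicate 1, nor, with Opalin, without the unnumbered MCAO library.

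Promoter sequences are shown for Mal, Fa2h and Ugt8, which fell after both strokes and have an entry in RefSeq's table for GRCr8, and for Opalin, the structural protein with the largest change. Each runs from 250 bases before the start of the gene to 50 after it, on the minus strand, at chr3:135341374-135341673 (Mal), chr19:56273431-56273730 (Fa2h), chr2:217007118-217007417 (Ugt8) and chr1:249858141-249858440 (Opalin). Capitals mark matches, on either strand, to CTGGCAC or CTGGTAC, forms of the site bound by Myrf, and to ACAAAG or ACAATG, forms of the site bound by SOX factors such as Sox10.
Mal: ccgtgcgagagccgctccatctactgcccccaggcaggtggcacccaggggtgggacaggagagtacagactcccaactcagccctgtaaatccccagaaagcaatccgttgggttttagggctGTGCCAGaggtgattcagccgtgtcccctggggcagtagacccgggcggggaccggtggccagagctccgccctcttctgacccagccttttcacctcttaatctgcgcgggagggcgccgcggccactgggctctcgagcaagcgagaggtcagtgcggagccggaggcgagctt
Fa2h: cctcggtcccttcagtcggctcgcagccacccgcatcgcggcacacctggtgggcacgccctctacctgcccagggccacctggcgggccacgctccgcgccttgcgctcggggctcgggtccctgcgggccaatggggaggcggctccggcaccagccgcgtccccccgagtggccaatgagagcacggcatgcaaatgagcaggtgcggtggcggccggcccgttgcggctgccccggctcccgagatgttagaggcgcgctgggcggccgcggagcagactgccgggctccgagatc
Ugt8: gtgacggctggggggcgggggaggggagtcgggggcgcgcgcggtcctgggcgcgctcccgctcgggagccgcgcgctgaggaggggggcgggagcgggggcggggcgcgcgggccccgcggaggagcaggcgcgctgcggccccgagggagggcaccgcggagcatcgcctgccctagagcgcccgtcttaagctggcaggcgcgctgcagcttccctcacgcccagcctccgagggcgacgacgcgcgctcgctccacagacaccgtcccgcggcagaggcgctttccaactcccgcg
Opalin: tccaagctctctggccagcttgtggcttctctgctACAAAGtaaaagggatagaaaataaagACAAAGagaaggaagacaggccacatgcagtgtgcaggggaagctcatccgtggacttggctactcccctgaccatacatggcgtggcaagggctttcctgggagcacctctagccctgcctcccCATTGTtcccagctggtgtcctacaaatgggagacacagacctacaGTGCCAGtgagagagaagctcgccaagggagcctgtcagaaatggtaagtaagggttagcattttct
Mal held 1 Myrf match, Opalin held 3 SOX matches and 1 Myrf match, and these letters are not in the windows of Fa2h and Ugt8. Of 33 members, 25 had entries, with 27 promoters in all. A Myrf match was in 7 of the 27 (25.9%), beside 6.78% of 33469 promoters of all genes, and a SOX match was in 8 (29.6%), beside 29.1%. A match describes the letters and does not show binding.

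The transcription factors were Myrf and Nkx6-2, a homeobox factor of maturing oligodendrocytes. Myrf had 214, 119 and 182 CPM in MCAO libraries, against 221, 194 and 169 CPM in sham LN. It had 422, 346 and 315 CPM in PI libraries, against 347, 402 and 544 CPM in sham PN. The groups overlapped in both pairs, and the log2 changes were -0.18 ± 0.23 (95% interval -0.63 to 0.27, adjusted p = 0.599) after MCAO and -0.25 ± 0.23 (95% interval -0.7 to 0.19, adjusted p = 0.547) after PI. Nkx6-2 had 22.8, 14.2 and 17.7 CPM in MCAO libraries, against 38.7, 28.9 and 26.1 CPM in sham LN. Its PI libraries had 52.6, 62.8 and 64.4 CPM, against 69.8, 82.1 and 85.9 CPM in sham PN. It passed after MCAO (-0.78 ± 0.20, adjusted p = 0.0221), a call lost with the replicate number as a block (adjusted p = 0.0931) and with the compared libraries alone (adjusted p = 0.0848). After PI its change was -0.40 ± 0.20 (adjusted p = 0.262) although the groups did not overlap.

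Set side by side by library, the median of the log2 differences from the mean of sham LN was -1.19, -1.21 and -0.94 for the structural proteins in MCAO libraries, -1.45, -1.11 and -1.03 for the galactolipid enzymes, and -0.15, -0.91 and -0.44 for the transcription factors. In PI libraries, set against the mean of sham PN, it was -0.79, -0.57 and -0.79 for the structural proteins, -1.31, -0.66 and -0.96 for the enzymes, and -0.29, -0.31 and -0.36 for the transcription factors. Of these 3 roles the transcription factors had the least negative median in all 6 stroke libraries, on 2 genes, and the difference between roles was not tested.

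Ratios of counts within a library do not depend on its scaling, and these were chosen after the values were seen. The count ratio of Fa2h to Myrf was 0.212 to 0.439 in MCAO libraries and 0.624 to 0.649 in sham LN, and 0.328 to 0.57 in PI libraries and 0.768 to 0.868 in sham PN. Neither pair overlapped. The ratio of Ugt8 to Myrf was 0.444 to 0.823 in MCAO libraries and 1.04 to 1.16 in sham LN, and 0.845 to 1.1 in PI libraries and 0.948 to 1.7 in sham PN, where the ranges overlap. Of the 6 pairs of an enzyme with a transcription factor, the stroke range lay wholly below sham in 4 after MCAO and 3 after PI. After MCAO these were each enzyme over Myrf, and Fa2h over Nkx6-2. After PI they were Fa2h over Myrf, and Fa2h and Gal3st1 over Nkx6-2. The pairs reuse the same genes, and the share of other gene pairs that separate in this way was not computed, so the counts carry no test.

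**Figure D3:**
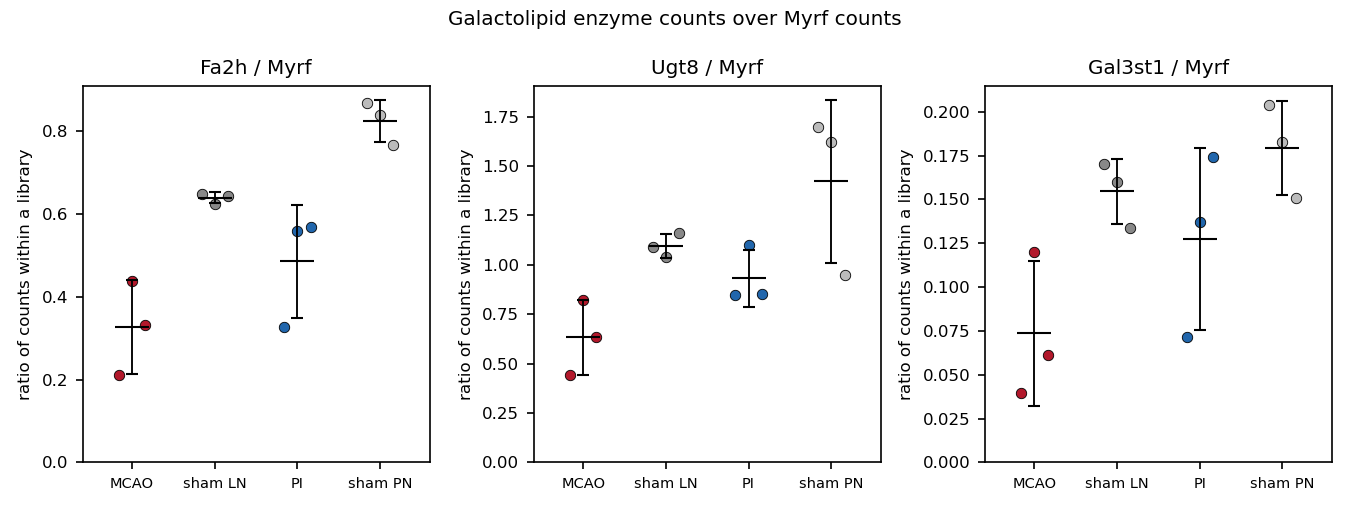
Ratio of the counts of Fa2h, Ugt8 and Gal3st1 to those of Myrf within each library, on linear axes that start at 0, for MCAO, sham LN, PI and sham PN, with 1 point per library and the group mean ± SD in black. The ratio of Fa2h to Myrf is 0.212 to 0.439 in MCAO against 0.624 to 0.649 in sham LN, and 0.328 to 0.57 in PI against 0.768 to 0.868 in sham PN.

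The connexin Gjc3, a gap junction subunit of glia, had 2.84, 5.43 and 3.97 CPM in MCAO libraries, against 13, 13.3 and 13 CPM in sham LN. It had 11.9, 24.2 and 10.2 CPM in PI libraries, against 20.4, 31.7 and 25.4 CPM in sham PN. Its fall after MCAO was the largest of any member (log2 -1.68 ± 0.34, adjusted p = 0.00817), and after PI the groups overlapped (-0.74 ± 0.32, adjusted p = 0.21). Both receptors fell after MCAO and neither passed after PI. Gpr37, an orphan receptor that restrains oligodendrocyte differentiation in mice, had 65.1, 90.8 and 61.4 CPM in MCAO libraries, against 174, 184 and 146 CPM in sham LN. Its PI libraries had 137, 271 and 176 CPM, against 258, 350 and 358 CPM in sham PN. The MCAO change was -1.21 ± 0.25 (adjusted p = 0.00884) and the PI change -0.72 ± 0.25 (adjusted p = 0.119), with overlap after PI. Lpar1, a receptor for lysophosphatidic acid, changed by -0.74 ± 0.18 (adjusted p = 0.0177) after MCAO, with -0.60 ± 0.18 (adjusted p = 0.0827) after PI.

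Neither adhesion protein of the axon-glia contact passed in either stroke. Nfasc, which is made by glia and neurons at the node of Ranvier, had log2 changes of -0.26 (adjusted p = 0.319) after MCAO and -0.50 (adjusted p = 0.139) after PI. Cntn2, a contactin that organises the region beside the node, had -0.46 (adjusted p = 0.0789) and -0.59 (adjusted p = 0.0771).

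Of the 7 other enzymes and secreted proteins, 1 fell after MCAO and 0 after PI. That 1 was Aspa, which splits N-acetylaspartate and so supplies acetate for lipid synthesis. It had 10.3, 11.3 and 5.37 CPM in MCAO libraries, against 20.8, 16.9 and 23.2 CPM in sham LN, and a log2 change of -1.17 ± 0.26 (adjusted p = 0.0113, and 0.0592 with the compared libraries alone). Aspa had 25.4, 35.3 and 33.5 CPM in PI libraries, against 43.4, 49.7 and 40.6 CPM in sham PN, a change of -0.50 (adjusted p = 0.267) with no overlap. Car2, a carbonic anhydrase, had -0.85 (adjusted p = 0.0852) after MCAO and -0.58 (adjusted p = 0.325) after PI, and Sirt2, a deacetylase, had -0.40 (adjusted p = 0.0846) and -0.55 (adjusted p = 0.0635). Qdpr, which regenerates tetrahydrobiopterin, had -0.14 (adjusted p = 0.723) and 0.13 (adjusted p = 0.799). Of the 3 other intracellular proteins, Bcas1, which marks newly myelinating cells, had -0.31 (adjusted p = 0.307) and -0.41 (adjusted p = 0.282), and Trim59, a ubiquitin ligase, had -0.63 (adjusted p = 0.143) and -0.48 (adjusted p = 0.359).

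The 3 members with a positive log2 change after MCAO were Tf, Adamts4 and Ndrg1, and none passed the test. Values of these and of Enpp2 are given by library because 1 library stands apart, a choice made after the values were seen. Tf, the iron carrier transferrin, had 3342, 855 and 1502 CPM in MCAO libraries, against 1004, 830 and 691 CPM in sham LN, a log2 change of 1.17 ± 0.38 (adjusted p = 0.0508). MCAO replicate 1, the library with 1087 CPM of choroid plexus markers, was the highest of the 12 libraries for Tf, which the choroid plexus also makes. The unnumbered MCAO library, with 1502 CPM of Tf, had 8.27 CPM of these markers. The part of choroid plexus in the level of Tf was not tested. Without MCAO replicate 1 the change of Tf was 0.40 (adjusted p = 0.292), and without MCAO replicate 2 it was 1.43 (adjusted p = 0.00289). Ndrg1, a protein of myelinating and stressed cells, had 269, 131 and 149 CPM in MCAO libraries, against 136, 121 and 132 CPM in sham LN, and its change of 0.50 ± 0.23 (adjusted p = 0.148) became 0.03 (adjusted p = 0.922) without MCAO replicate 1. Enpp2, the enzyme autotaxin, is also made by the choroid plexus, whose part in its level was likewise not tested. It had 110, 50.5 and 60.2 CPM in MCAO libraries, against 125, 117 and 111 CPM in sham LN, a change of -0.68 ± 0.23 (adjusted p = 0.0634) that was -1.17 (adjusted p = 0.00245) without MCAO replicate 1. Adamts4, a protease that cleaves matrix proteoglycans, had 114, 36.2 and 132 CPM in MCAO libraries, against 67.5, 61.7 and 56 CPM in sham LN. MCAO replicate 2 lay below the sham range and the other MCAO libraries above it, and the change of 0.61 (adjusted p = 0.256) was 0.91 (adjusted p = 0.00646) without replicate 2.

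**Figure D4:**
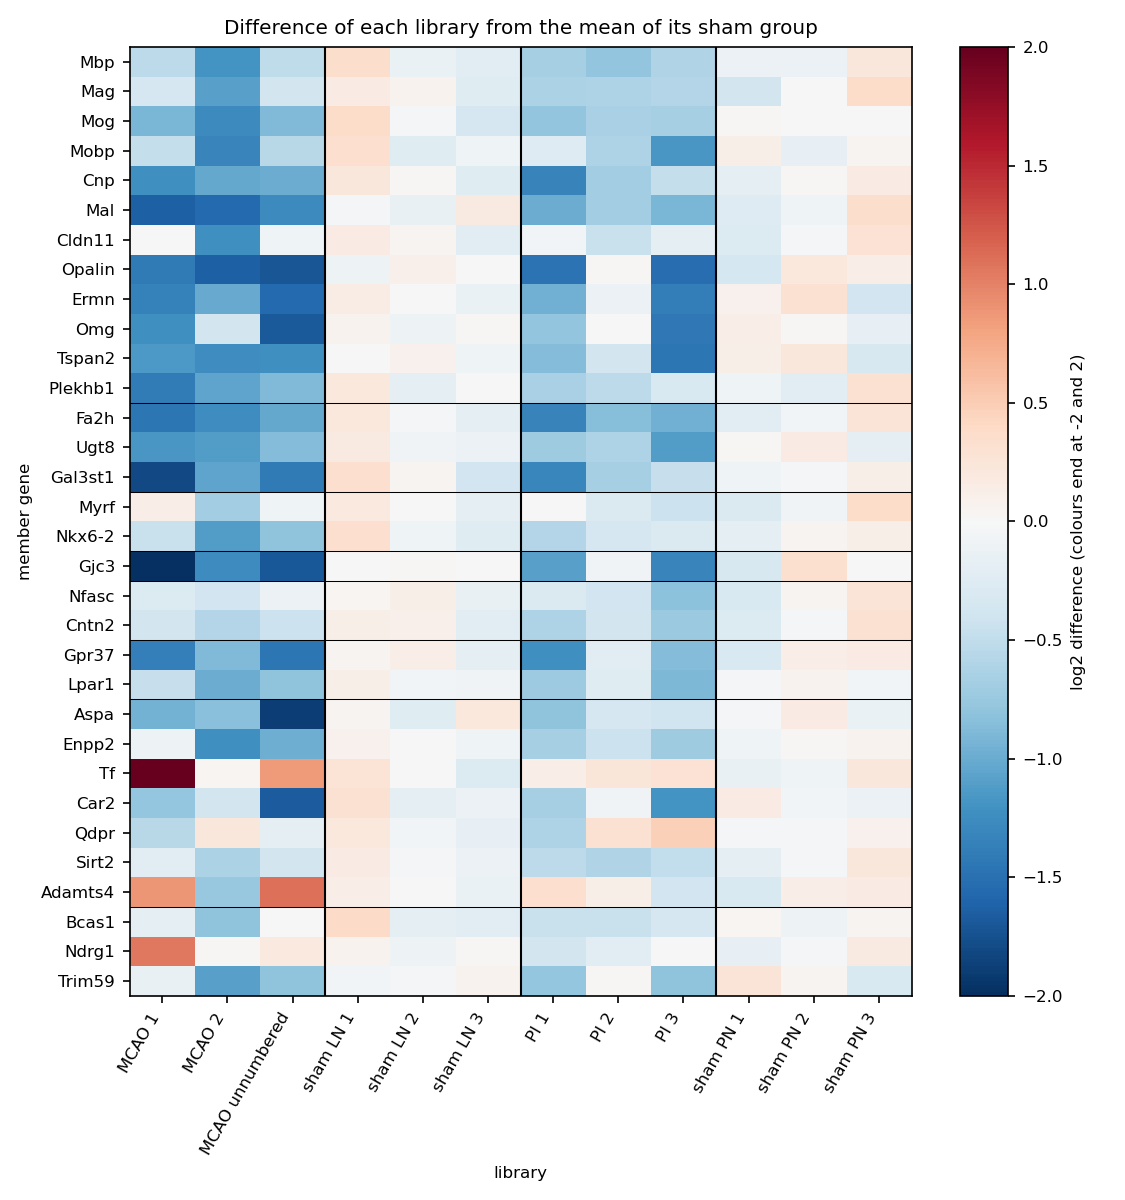
Log2 difference of each tested member in each of the 12 libraries from the mean of its sham group, with members in rows by role and libraries in columns (colours end at -2 and 2). Tf stands out as positive in MCAO replicate 1, and the galactolipid enzymes are negative in all 6 stroke libraries.

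The second question was whether the response to MCAO differed from the response to PI, tested as the difference of the 2 log2 changes. No member passed this test and 0% of the 17008 genes did, and DESeq2 and limma voom called 0 members. An unadjusted p under 0.05 was found for 2 of the 32 members. The share of all genes at that unadjusted p was not computed, so no result is read from it. The difference was negative for 23 of the 32 members, where 42.8% of all genes were negative. The members called after MCAO only are therefore not shown to respond differently. The lowest adjusted p was 0.433 for Mal, whose difference was -0.60 ± 0.25 (95% interval -1.10 to -0.11). For Plekhb1 the difference was -0.60 (adjusted p = 0.448), for Ndrg1 0.69 ± 0.33 (adjusted p = 0.482) and for Gjc3 -0.94 ± 0.46 (adjusted p = 0.492). For Fa2h the difference was -0.20 (95% interval -0.69 to 0.30) and for Ugt8 -0.24 (95% interval -0.69 to 0.21). The intervals of Fa2h and Ugt8 hold 0 but reach well below it. That of Mal, which is not adjusted for the number of genes, lies below 0. Equal responses are therefore not shown either.

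The third comparison set the levels of the members in sham LN against sham PN. In sham LN, 24 of the 32 members were lower than in sham PN and 0 were higher, where 11.3% of all genes were lower in sham LN, 10% higher and 21.3% either. Sham LN lay wholly below sham PN for 31 members, where 29.2% of all genes did and 21.7% lay wholly above, and the median log2 change of the members was -1.16, beside -0.11 for all genes. Mbp averaged 12010 ± 2644 CPM in sham LN and 33390 ± 4855 CPM in sham PN (SD, n = 3 each), a log2 change of -1.48 ± 0.24 (adjusted p = 0.00134). Fa2h averaged 125 ± 17.5 CPM in sham LN and 352 ± 59.7 CPM in sham PN (log2 -1.5 ± 0.18, adjusted p = 0.000194), and Ugt8 213 ± 24.3 CPM in sham LN and 586 ± 68.1 CPM in sham PN (log2 -1.46 ± 0.17, adjusted p = 0.000123). Tf had the largest change, at 842 ± 157 CPM in sham LN and 2609 ± 385 CPM in sham PN (log2 -1.63 ± 0.38, adjusted p = 0.0103). Both transcription factors were lower in sham LN, Myrf by a log2 of -1.14 (adjusted p = 0.00464) and Nkx6-2 by -1.34 (adjusted p = 0.000749). The exception in direction was Omg, which averaged 121 ± 7.33 CPM in sham LN and 119 ± 12.1 CPM in sham PN (log2 0.02, adjusted p = 0.971). Gjc3, Opalin, Tspan2, Nfasc, Car2, Adamts4 and Trim59 also did not pass, with log2 changes of -0.52 to -0.98. Leaving out 1 library at a time, 20 of the 24 passed in every case, and the others were Mal, Gpr37, Cldn11 and Tf, of which Tf did not pass without sham LN replicate 3.

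Of 30 other genes of myelin and oligodendrocytes, 28 were tested, of which 11 fell and 2 rose after MCAO (median -0.51), and 3 fell and 0 rose after PI (median -0.39), beside the shares of all genes given for these comparisons (6.07% lower and 12.5% higher after MCAO, 0.87% lower after PI). The largest falls after MCAO were those of Hhip, an inhibitor of hedgehog signals (log2 -1.98, adjusted p = 0.0108), Ninj2, an adhesion protein (-1.71, adjusted p = 0.0173, lost without sham LN replicate 2, MCAO replicate 1 or the unnumbered MCAO library), and Prr18 (-1.62, adjusted p = 0.00393). The 2 that rose were Il33, an alarmin cytokine (1.5, adjusted p = 0.0375), and Cd9, a tetraspanin (0.77, adjusted p = 0.0351), both also made by other cells. Both calls were lost whichever compared library was left out, except MCAO replicate 2. The 3 that fell after PI were Prr18 (-1.12, adjusted p = 0.039), Zfp488, a nuclear regulator of oligodendrocyte differentiation in mice (-0.81, adjusted p = 0.0468), and Olig2, the lineage factor (-0.80, adjusted p = 0.0465). None of the 3 passed without sham PN replicate 2, sham PN replicate 3 or PI replicate 1, and 1 to 2 genes of the list passed with 1 of the others left out. Between the shams, 18 of the 28 were lower in sham LN and 0 higher, where 11.3% of all genes were lower and 10% higher.

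Of 10 genes of oligodendrocyte precursors and newly formed oligodendrocytes, 3 fell after MCAO and 1 after PI, where 6.07% and 0.87% of all genes did. Gpr17, a receptor of committed precursors, averaged 24.1 ± 20.9 CPM in MCAO libraries and 100 ± 7.66 CPM in sham LN (SD, n = 3 each; log2 -2.06 ± 0.46, adjusted p = 0.0128). Enpp6, a choline phosphodiesterase of newly forming oligodendrocytes, passed after both strokes, averaging 6.49 ± 1.36 CPM in MCAO libraries and 13.3 ± 3.11 CPM in sham LN, and 14.8 ± 4.01 CPM in PI libraries and 31.8 ± 4.54 CPM in sham PN. Its log2 changes were -1.04 (adjusted p = 0.0182) and -1.11 (adjusted p = 0.0336). The call of Enpp6 after PI was lost in every fit that left out a compared library other than PI replicate 2, and that after MCAO without sham LN replicate 1. Both Enpp6 calls and that of Gpr17 were lost with the compared libraries alone. Pdgfra, the growth factor receptor of precursors, passed after MCAO (-0.70, adjusted p = 0.0437) and had a log2 change of 0.02 (adjusted p = 0.973) after PI. Its call after MCAO was lost when any sham LN library or the unnumbered MCAO library was left out. That call was also lost with the compared libraries alone and with the replicate number as a block.

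Myelin growth also needs cholesterol. Of 14 tested genes of sterol synthesis, 9 fell after PI (median -0.81) and 2 after MCAO, with 0 rising in either, where 0.87% of all genes fell after PI and 6.07% after MCAO. Without sham PN replicate 3, 0 of the 9 passed, without sham PN replicate 2, 2 did, and without sham PN replicate 1, PI replicate 1 or PI replicate 3, 4 did. The 2 after MCAO, Dhcr7 and Fdft1, an early enzyme of the sterol branch, did not pass whichever sham LN library was left out. The largest falls after PI were those of Lss, lanosterol synthase (log2 -1.46, adjusted p = 0.00537), Hmgcs1, an early enzyme of the route (-1.25, adjusted p = 0.0336), and Dhcr7, which makes the last step to cholesterol (-1.03, adjusted p = 0.023). After MCAO, Lss had -0.12 (adjusted p = 0.678), Hmgcs1 -0.50 (adjusted p = 0.217) and Dhcr7 -0.72 (adjusted p = 0.0364). The difference of the responses was not called for any of the 14, and for Lss it was 1.34 ± 0.27 (adjusted p = 0.213).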

How the data were processed

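The authors deposited one table of unscaled gene counts, whole numbers for 37209 symbols in 12 libraries. HISAT2 and Rnor_6.0 are named, with no role or version, in the submitters' processing notes. No source used here gives the counting program, annotation or strandedness, so overlapping and antisense genes cannot be told apart. Per the labels, RNA was extracted with Trizol. One MCAO column matches no sample title and was used as an unnumbered MCAO library.

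Counts were analysed with edgeR 4.0.16 in R 4.3.3. The filter filterByExpr, with a minimum count of 10 and a minimum total of 15, passed 17008 genes. One quasi-likelihood fit with TMM scaling held all 12 libraries, since 3 libraries a group give few degrees of freedom. Tests were two-sided, with Benjamini-Hochberg adjustment over all tested genes and a threshold of 0.05; the common biological coefficient of variation came to 0.302. SE was taken as |log2 change| divided by the root of F, and 95% intervals are 1.96 SE either side. CPM uses TMM-scaled library sizes, and a prior count of 2 entered only library log2 values. The code was tested on simulated data.

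The members and gene lists were chosen with earlier results of these data known, so no test was made over a list. Values by library were given for Mbp, Mag, Mog, Cnp, Mal, Fa2h, Ugt8, Gal3st1, Myrf and Nkx6-2 and, in each role, for the member with the largest change past the threshold after each stroke. From other lists at most 3 genes, those with the largest changes past the threshold, were named; genes chosen otherwise are marked. X and autosomal positions and promoters come from RefSeq on GRCr8, used for names and sequences only, not for coordinates of the counts.

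Alternatives were DESeq2 1.42.0 size factors and test, limma 3.58.1 voom, at least 1 CPM in 3 libraries as the filter, no filter at all, the compared libraries alone, all 6 shams as control, a replicate block, and each library left out in turn. In the replicate block the unnumbered MCAO library formed a block of its own and so added nothing to the MCAO changes.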

Additional observations from a re-analysis of the deposited data

How the results depend on the processing

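Genes called after MCAO numbered 3163, against 4584 by DESeq2 and 3337 with all 6 shams as control. The count was 1354 with the compared libraries alone and 1413 with the replicate block. With 1 library left out it was 1136 to 6170, the highest without MCAO replicate 2. Members called after MCAO numbered 15, against 24 by DESeq2 and 24 with all 6 shams as control (median log2 change -1.5), and 11 to 20 with 1 library left out. Genes called after PI numbered 694, against 1738 by DESeq2, 315 by limma voom, 1512 with all 6 shams and 6 to 965 with 1 library left out. Members called after PI numbered 4, against 10 by DESeq2, 0 with all 6 shams (median -0.18) and 0 to 9 with 1 library left out. All 6 shams pool groups whose members differ, as given for the shams. For the difference of the responses 0 genes were called, against 1 with no filter, 238 by DESeq2 and 0 to 970 with 1 library left out, the highest without MCAO replicate 2. Between shams 3625 genes were called, against 6365 with the compared libraries alone and 2334 to 2662 with 1 library left out, the lowest without sham LN replicate 3. Signs turned for Ndrg1 after MCAO with all 6 shams (-0.49), and after PI with all 6 shams for Cldn11 (0.22), Myrf (0.21), Nkx6-2 (0.12), Bcas1 (0.06) and Ndrg1 (0.39), none of them called after PI in the fit as reported. Adamts4 after PI was -0.02 with the replicate block and -0.13 to 0.21 with 1 library left out, Qdpr after PI -0.08 to 0.40 and Omg between the shams -0.05 to 0.09. The cause was not tested. The replicate block called 14 members after MCAO (Lpar1 and Nkx6-2 lost, Mobp gained) and 4 after PI (Mog lost, Tspan2 gained). In that fit the unnumbered MCAO library was a block of its own, so the MCAO changes rest on the numbered MCAO libraries. Lpar1 and Nkx6-2 were also lost when the unnumbered library was left out, so the block and the loss of that library cannot be told apart. With the compared libraries alone 13 members were called after MCAO (Aspa and Nkx6-2 lost) and 3 after PI (Ugt8 lost). Deviations of same-numbered libraries correlated by 0.04 to 0.15 and not all above 0.1, so the numbers are not taken to pair the libraries, although each numbered stroke library correlated best with the sham of its number and each sham LN library with the sham PN library of its number.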
